A study of Mus musculus with 20 samples.

Results

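Cell cycle genes of bone marrow-derived macrophages (BMDM) were followed across 5 groups of mouse RNA-seq libraries. The genes are those rows of the normalized gene count table whose Ensembl identifier carries, in GENCODE M21, 1 of 52 symbols of a fixed list. All 52 were found among the 14456 genes of the table, and all 52 passed the filter on low values in each comparison. By their main role, 30 act from G1 into S phase and 22 in G2 and mitosis (G2/M).

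A dividing cell passes from G1 into S phase when D-type cyclins with Cdk4 or Cdk6, and then E-type cyclins with Cdk2, phosphorylate the retinoblastoma family of pocket proteins and so free E2F transcription factors. E2F targets include the helicase subunits and enzymes that copy DNA. The transcripts of mitosis (cyclin B, Cdk1, Plk1, the Aurora kinases, the spindle and centromere proteins) follow later, in G2, under the DREAM, B-Myb and Foxm1 complexes. Macrophages grown from marrow with macrophage colony-stimulating factor (M-CSF) still cycle in part, and each of these sets can therefore be measured in them.

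BMDM came from male wild-type C57BL/6 mice, aged 8 weeks by one statement of the methods and 8 to 12 weeks by another, whose marrow was grown for 6 days in 25 ng/ml M-CSF. The first experiment compared BMDM after 24 h in high glucose (25 mM, n = 4) with BMDM in normal glucose (5.5 mM, n = 4), to which 19.5 mM mannitol, a sugar alcohol that cells hardly use, had been added. In the second, naive BMDM were exposed for 24 h to PBS (n = 4), to exosomes from BMDM in normal glucose (BMDM-NG-exo, n = 4) or to exosomes from BMDM in high glucose (BMDM-HG-exo, n = 4). Exosomes were given at 2000000000 particles/ml. Each exosome group carries the same 4 label dates as PBS, and the exosome-treated samples came from separate exosome preparations. The labels do not say that the glucose libraries came from separate animals, so their p-values measure only the spread between these libraries, which may be technical. Nor do they say that the naive BMDM of the 4 dates came from separate animals. The p-values of the second experiment thus measure the spread between its libraries.

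The deposited values are reads per gene divided by 1 size factor for each library, and are called normalized counts here. The recovered reads added up to between 34016445 and 56310712 for each library (median 43311931). PBS library 1 was the shallowest and had 47 listed genes at 0 reads, against 2 to 14 in the other libraries. Of 7 macrophage markers all 7 were listed, with a summed normalized count from 621000 to 868300. Of the markers of other cells, 5 of 9 for neutrophils and their precursors were listed with a sum from 165 to 378, 2 of 4 for progenitors with 182 to 372, 4 of 6 for fibroblasts with 110 to 373 and 1 of 5 for B cells with 17.4 to 68.0; the defining T and NK, dendritic, erythroid and mast cell markers were not listed. The macrophage sum did not overlap between high glucose (798400 to 868300) and normal glucose (621000 to 695700), nor between PBS (785800 to 831800) and the exosome groups (710700 to 766400), and its part in the results was not tested.

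Per kilobase of exon, the level over all 20 libraries ran from 14 normalized counts for Ccne2, the E-type cyclin with the lowest level, to 1378 for Pcna, the sliding clamp of DNA polymerase. High levels were also found for Cdkn1a, the inhibitor p21 (765 per kilobase), for the helicase subunit Mcm6 (541) and for the inhibitor Cdkn1b, p27 (529). Mki67, which encodes the proliferation antigen Ki-67, had 479 per kilobase and Top2a, the topoisomerase that untangles sister chromatids, 133. The reads behind 1 value lay between 13 (Ccne2) and 8340 (Cdk6), so that the low members Ccne2, Cdc6, Cdc45 and Ccne1 have the widest errors. In a bulk library, fewer cells in a phase and less RNA in each cell cannot be told apart.

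To show what the 2 phases share in their regulatory sequence, windows of 300 bases around the start site (250 before it and 50 from it on, RefSeq, GRCm38.p6) were searched on both strands. Of the members, 42 of 52 matched by symbol (24 G1/S and 18 G2/M), and a gene with several windows was counted once. The motifs were those of E2F (TTTCCCGC, TTTGGCGC, TTTGCGC and TTCCCGCC), the cell cycle genes homology region or CHR (TTTGAA and TTTAAA), which DREAM and B-Myb complexes bind, and the CCAAT box, which NF-Y binds. Overlapping matches were each counted, and a match describes letters, not binding.

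An E2F motif was in the window of 11 of 24 G1/S genes (45.8%) and of 0 of 18 G2/M genes, against 5.4% of the 27025 genes of the promoter table. A CHR was in 16 of 18 G2/M windows (88.9%) and in 8 of 24 G1/S windows (33.3%), against 30.6% of all genes. The CCAAT box was in 16 of 18 G2/M windows (88.9%), in 15 of 24 G1/S windows (62.5%) and in 41.1% overall. Both a CHR and a CCAAT box stood in 15 of 18 G2/M windows (83.3%), in 29.2% of the G1/S windows and in 12.2% of all, and a CHR with at least 2 CCAAT boxes in 55.6%, 20.8% and 3.6%. The G2/M windows thus stood above the general share mainly in the CHR and its pair with CCAAT, and the G1/S windows in the E2F motif.

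**Figure D1:**
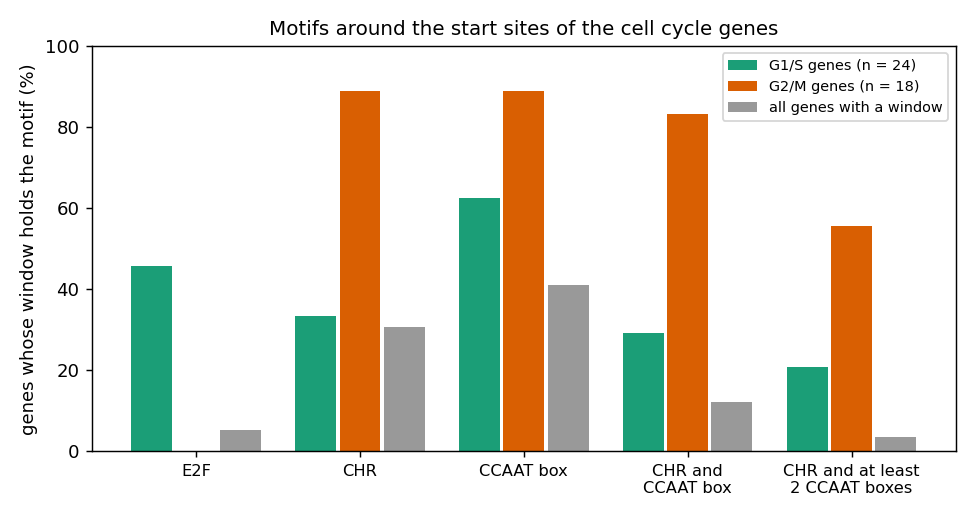
Share of genes (vertical axis, percent) whose 300-base RefSeq window around the start site holds each motif, for 24 G1/S genes, 18 G2/M genes and all genes of the promoter table. The E2F bar stands at 45.8% for G1/S genes and at 0 for G2/M genes, and the bars for a CHR with a CCAAT box stand at 29.2%, 83.3% and 12.2%.

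Stretches of 200 bases, from 170 before the start site to 30 from it on, are shown for 5 G2/M genes on which the comparisons below turn and for 2 S phase genes as a contrast. Capitals mark the CHR, the CCAAT box and the E2F letters, a box on the other strand reading ATTGG, and each stretch is written 5′ to 3′ on the strand of the gene in GRCm38.p6. Positions are counted from 0 at the start site.
Cdc20, chr4:118437314-118437513, minus strand: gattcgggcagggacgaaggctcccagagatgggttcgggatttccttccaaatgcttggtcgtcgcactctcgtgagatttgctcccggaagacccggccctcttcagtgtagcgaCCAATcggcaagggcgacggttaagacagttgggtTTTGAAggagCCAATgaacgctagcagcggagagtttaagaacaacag
Cenpf, chr1:189688057-189688256, minus strand: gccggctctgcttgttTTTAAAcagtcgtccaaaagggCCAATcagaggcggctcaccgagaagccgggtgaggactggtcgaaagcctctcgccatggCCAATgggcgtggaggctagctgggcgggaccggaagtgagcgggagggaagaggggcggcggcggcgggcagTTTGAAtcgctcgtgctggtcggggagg
Mki67, chr7:135716350-135716549, minus strand: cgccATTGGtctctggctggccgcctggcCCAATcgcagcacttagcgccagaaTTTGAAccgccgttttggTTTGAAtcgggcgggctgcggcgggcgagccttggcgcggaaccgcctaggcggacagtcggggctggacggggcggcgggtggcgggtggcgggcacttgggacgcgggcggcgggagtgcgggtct
Kif23, chr9:61946770-61946969, minus strand: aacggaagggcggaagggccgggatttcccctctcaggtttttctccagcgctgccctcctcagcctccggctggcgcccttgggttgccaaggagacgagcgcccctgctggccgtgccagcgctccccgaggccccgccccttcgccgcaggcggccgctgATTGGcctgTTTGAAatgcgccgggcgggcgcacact
Cenpa, chr5:30666716-30666915, plus strand: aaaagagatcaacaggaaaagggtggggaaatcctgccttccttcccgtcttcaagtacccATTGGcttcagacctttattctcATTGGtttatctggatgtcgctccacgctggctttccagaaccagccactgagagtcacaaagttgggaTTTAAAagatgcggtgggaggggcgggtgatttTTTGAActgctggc
Mcm6, chr1:128359676-128359875, minus strand: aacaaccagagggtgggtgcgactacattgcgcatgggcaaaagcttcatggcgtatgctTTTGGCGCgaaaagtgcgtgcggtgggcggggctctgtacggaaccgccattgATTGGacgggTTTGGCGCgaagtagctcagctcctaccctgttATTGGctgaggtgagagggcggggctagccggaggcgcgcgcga
Rrm1, chr7:102441525-102441724, plus strand: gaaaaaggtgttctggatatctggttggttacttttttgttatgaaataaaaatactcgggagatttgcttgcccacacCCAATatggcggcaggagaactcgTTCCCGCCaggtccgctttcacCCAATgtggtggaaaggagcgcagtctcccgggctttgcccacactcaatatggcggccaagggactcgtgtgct

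In Cdc20 the CHR (TTTGAA) starts at -18, between CCAAT boxes at -53 and -8. Cenpf and Mki67 hold a pair of CHR motifs each, at -154 and 2 in Cenpf and at -116 and -98 in Mki67. Kif23 holds a CHR at 2 and a reversed CCAAT box at -7, and Cenpa has CHR motifs at -17 and 16 downstream of reversed CCAAT boxes at -109 and -86. The 2 S phase genes shown hold E2F letters instead, TTTGGCGC at -110 and -47 in Mcm6 and TTCCCGCC at -67 in Rrm1. Both have CCAAT boxes but no CHR. They do not stand for all 24 G1/S windows, of which 11 hold E2F letters and 8 a CHR.

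The first comparison asked which of these genes differed when BMDM themselves were kept in high glucose. Of the 52 genes 11 (21.2%) passed the test, limma's moderated test of log2(normalized count + 1) with Benjamini-Hochberg adjustment over 14425 genes, against 13.3% of all genes tested. The 2 that rose (3.85%, against 7.74% of all genes) were E2f2 and Ccnd3. The 9 that fell (17.3%, against 5.53% of all genes) were the mitotic genes Cenpa, Birc5, Cenpe, Kif23 and Cenpf and the G1 genes Rb1, Ccnd1, Cdkn1a and Cdk6. The groups did not overlap for 10 of the 52 genes, against 16.3% of all genes. Over all genes 1116 rose and 798 fell, and after quantile normalization 789 rose and 872 fell, while 2 and 10 of the 52 did. The number of calls among the 52 was 6 without normal glucose library 3, 4 without normal glucose library 5 and 7 without each of high glucose libraries 1, 2 and 6.

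By phase, 5 of 22 G2/M genes fell (22.7%, against 5.53% of all genes) and 0 rose (against 7.74%). Below 0 were 19 of the 22, against 7331 of 14425 over all genes, and the median log2 fold change was -0.19. Of the G1/S genes 4 of 30 fell (13.3%, against 5.53% of all genes) and 2 rose (6.67%, against 7.74%). In this phase 16 were below 0, and the median was -0.02. The median of all genes tested was -0.00. In the mean over the 22 G2/M genes of the log2 difference from the mean of each gene in its experiment, the 4 normal glucose libraries lay at 0.08, 0.16, 0.17 and 0.00 and the 4 high glucose libraries at -0.08, -0.23, 0.05 and -0.14, and the groups overlapped because high glucose library 4 exceeded normal glucose library 6. The G1/S mean ran from -0.01 to 0.07 in normal glucose and from -0.10 to 0.08 in high glucose and overlapped throughout.

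**Figure D2:**
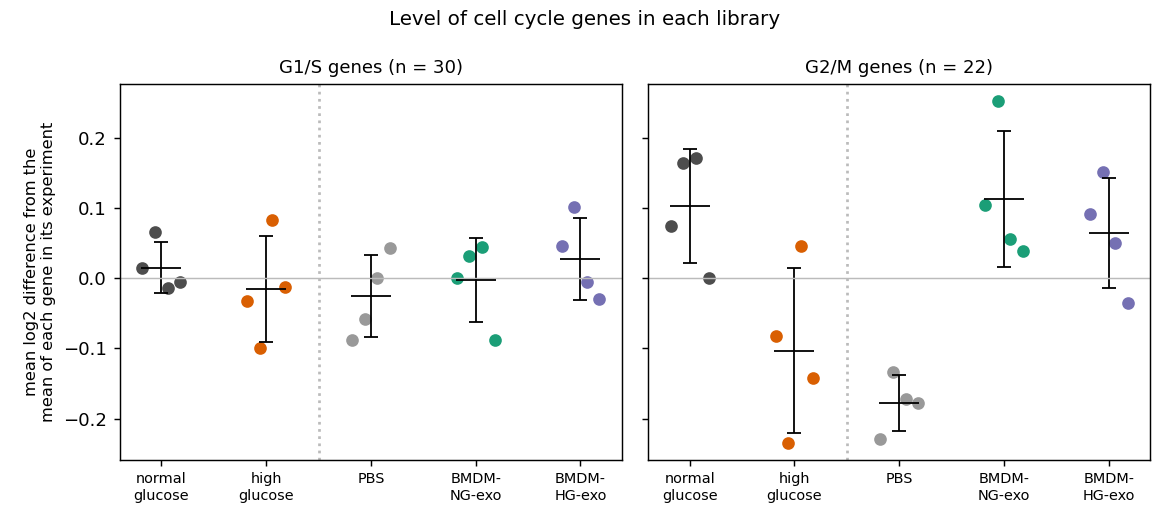
Mean over the 30 G1/S genes (left) and the 22 G2/M genes (right) of the log2 difference from the mean of each gene in its experiment (vertical axis) for each library (points, replicates in order), with the group mean and SD (bars, n = 4). The dotted line separates the 2 experiments, which are centred separately; in G2/M genes the 4 PBS libraries (-0.23 to -0.13) lie below all 8 exosome libraries (-0.03 to 0.25).

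Among the centromere and spindle genes, Cenpa, the histone H3 variant that marks the centromere, had 1259.8, 1564, 1761 and 1395 normalized counts in the normal glucose libraries and 931, 698, 704 and 781 in the high glucose libraries. All 4 high glucose values lay below all 4 normal glucose values, with means of 1495 ± 217 against 778 ± 108 (SD, n = 4). The log2 fold change was -0.94 (SE 0.087, limma adjusted p = 4.37e-10), the largest drop of the 52 genes in this comparison. Cenpe, the kinetochore kinesin that carries chromosomes to the spindle equator, had 1057, 1232, 1168 and 1099 in normal and 883, 929.9, 971 and 865 in high glucose, with no overlap (log2 fold change -0.32, SE 0.070, limma adjusted p = 0.0014). Cenpf, a kinetochore and nuclear matrix protein of G2, had 1132, 1114, 1079 and 1041 against 905, 854, 932 and 1040.3, the closest libraries being 1041 and 1040.3 (log2 fold change -0.23, SE 0.071, limma adjusted p = 0.0263), and this call was lost without normal glucose library 1, 3 or 5 and without high glucose library 1, 2 or 4.

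Kif23, the kinesin of the central spindle in cytokinesis, had 1158, 1128, 1147 and 911 in normal and 1025, 835, 882 and 817 in high glucose. The low value of normal glucose library 6 and the high value of high glucose library 1 made the groups overlap, and the log2 fold change was -0.29 (SE 0.081, limma adjusted p = 0.0141), a call lost without normal glucose library 5 or high glucose library 2 or 6. Birc5, survivin of the chromosomal passenger complex, had 168, 277, 246 and 240.4 against 153, 148, 161 and 156, with a lowest normal glucose library close to the high glucose group (log2 fold change -0.56, SE 0.16, limma adjusted p = 0.0142). The call of Birc5 was lost without normal glucose library 3 (adjusted p = 0.0647) and without library 5 (adjusted p = 0.0515).

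The general markers of cycling cells did not pass limma's test. Mki67 had 4607, 5492, 5153 and 4895 normalized counts in normal and 4437, 4409, 5186 and 4804 in high glucose, which overlap, and Top2a had 1302, 1432, 1470.3 and 1281 against 1205, 1089, 1499 and 1213. Their log2 fold changes were -0.10 (95% interval -0.20 to 0.01) and -0.14 (-0.29 to 0.01), and Top2a passed without high glucose library 4. Ccna2, the cyclin of S phase and G2, had 271, 320.1, 299.6 and 289 against 231, 218, 236 and 245, with no overlap, but its log2 fold change of -0.34 missed the threshold (SE 0.13, limma adjusted p = 0.0709), which it passed with DESeq2 and without the variance trend. Ccnb1, the cyclin that starts mitosis with Cdk1, overlapped fully at 201, 242, 275 and 156 against 237, 200.2, 243 and 179.6 (log2 fold change -0.00, 95% interval -0.33 to 0.32). Aurkb, the kinase of the passenger complex that Birc5 belongs to, was on the other side of 0 at a log2 fold change of 0.42 that missed the threshold (limma adjusted p = 0.0701) but passed after quantile normalization and without normal glucose library 6.

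Of the G1/S genes, E2f2, an activating E2F factor, had 1120.5, 1073, 1014 and 1162 normalized counts in normal and 1559, 1572, 1689 and 1726 in high glucose. Each high glucose library exceeded each normal glucose library, and E2f2 rose by a log2 fold change of 0.58 (SE 0.063, limma adjusted p = 1.30e-08). E2f1 had a log2 fold change of -0.03. Rb1, the retinoblastoma protein that restrains E2F factors, had 3106, 3628, 3378 and 3674 against 2999, 2969, 2861 and 2714 without overlap and fell by 0.25 on the log2 scale (SE 0.052, limma adjusted p = 5.65e-04), whereas its relative Rbl1 had a log2 fold change of 0.16 and did not pass.

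The D-type cyclins and their kinase differed in direction. Ccnd1 had 1366, 1323, 1415 and 1252 against 1102, 1147, 1314 and 1077, overlapping through high glucose library 4 (log2 fold change -0.21, SE 0.068, limma adjusted p = 0.0342), and its call was lost without normal glucose library 1 or 5 or high glucose library 1, 2 or 6. Ccnd3 had 1322, 1233, 1352 and 1307 against 1738, 1399, 1432 and 1433, where library 1 stood apart (log2 fold change 0.20, SE 0.066, limma adjusted p = 0.0412), and its call was absent after quantile normalization and without normal glucose library 3, 5 or 6 or high glucose library 1 or 6. Cdk6, their kinase, had 7417, 7680.1, 7388 and 6987 against 6717, 6515, 6919 and 6758 and fell by 0.13 on the log2 scale (SE 0.039, limma adjusted p = 0.0204), a call lost without normal glucose library 3 or 5 or high glucose library 2.

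Of the inhibitors, Cdkn1a had 2642, 2852, 2938 and 2811 against 2602, 2644, 2542 and 2349, overlapping at library 1 of normal glucose, and fell by 0.15 on the log2 scale (SE 0.051, limma adjusted p = 0.0442), a call that remained only without normal glucose library 1 or high glucose library 2 among the 8 fits with 1 library left out. Cdkn2c, p18, had 278, 331, 225 and 257 against 286, 261, 240.0 and 267 (log2 fold change -0.04, 95% interval -0.31 to 0.23). Ccne2 had 52.9, 72.5, 40.2 and 45.2 against 50.5, 45.5, 82.6 and 68.6 (log2 fold change 0.22, 95% interval -0.35 to 0.80). None of the 10 licensing and helicase genes and none of the 5 genes of DNA synthesis passed limma's test. At an unadjusted p under 0.05, 0 of the 10 and 2 of the 5 were counted, against 3663 of 14425 over all genes. Of the 15, edgeR and DESeq2 called none either. Mcm5, a helicase subunit, had 528, 464, 403 and 445 against 483, 392, 532 and 456 (log2 fold change 0.02, 95% interval -0.20 to 0.23).

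The members that did not pass spread by role as follows. Of the remaining G1 cyclins and kinases, Ccnd2 (0.24), Ccne1 (-0.39), Cdk2 (-0.02) and Cdk4 (0.05) gave log2 fold changes on both sides of 0. Cdkn1b had -0.14, with groups that did not overlap. The helicase and licensing genes Mcm2, Mcm3, Mcm4, Mcm6, Mcm7, Cdc45, Cdt1 and Gmnn lay between -0.02 and 0.09, and Cdc6, the loader of the helicase, at -0.42. Pcna, Rrm1 and Tyms lay between -0.05 and 0.02, whereas the ribonucleotide reductase subunit Rrm2 (-0.37) and Uhrf1 (-0.32), which carries DNA methylation through S phase, were lower but missed the threshold.

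In the mitotic groups, all 5 of Ccna2, Ccnb1, Ccnb2, Cdk1 and Foxm1 were below 0, with a median log2 fold change of -0.24. Among the mitotic kinases and checkpoint genes, Aurka (-0.49) and Cdc20 (-0.35) were below 0 and Bub1 (0.11) above it, and Plk1 and Bub1b lay at -0.00 and -0.05. Nusap1, a microtubule binder of the spindle, had -0.43 without passing, and Tpx2, Kif11 and Ect2 lay between -0.15 and 0.02.

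Among further cell cycle genes outside the 52, 1 of 26 S phase genes, 3 of 37 G2/M genes, 3 of 21 regulators and 5 of 10 p53 targets passed in this comparison (3.85%, 8.11%, 14.3% and 50%, against 13.3% of all genes). Of the 37 further G2/M genes 2 fell (5.41%, against 5.53% of all genes) and 1 rose. Below 0 were 26 of these 37 (median log2 fold change -0.11) and 15 of the 26 S phase genes (median -0.02). The p53 targets moved in both directions: Bax, a promoter of apoptosis, rose by a log2 fold change of 0.36 (adjusted p = 2.87e-05) and Btg2, an antiproliferative gene, by 0.31 (adjusted p = 1.03e-04), whereas Gadd45a fell by 0.41 on the log2 scale (adjusted p = 0.00163). Pola1, the catalytic subunit of DNA polymerase alpha, fell by 0.35 on the log2 scale (adjusted p = 0.00905), and Tubb4b, a beta tubulin, rose by a log2 fold change of 0.30 (adjusted p = 2.93e-04).

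**Figure D3:**
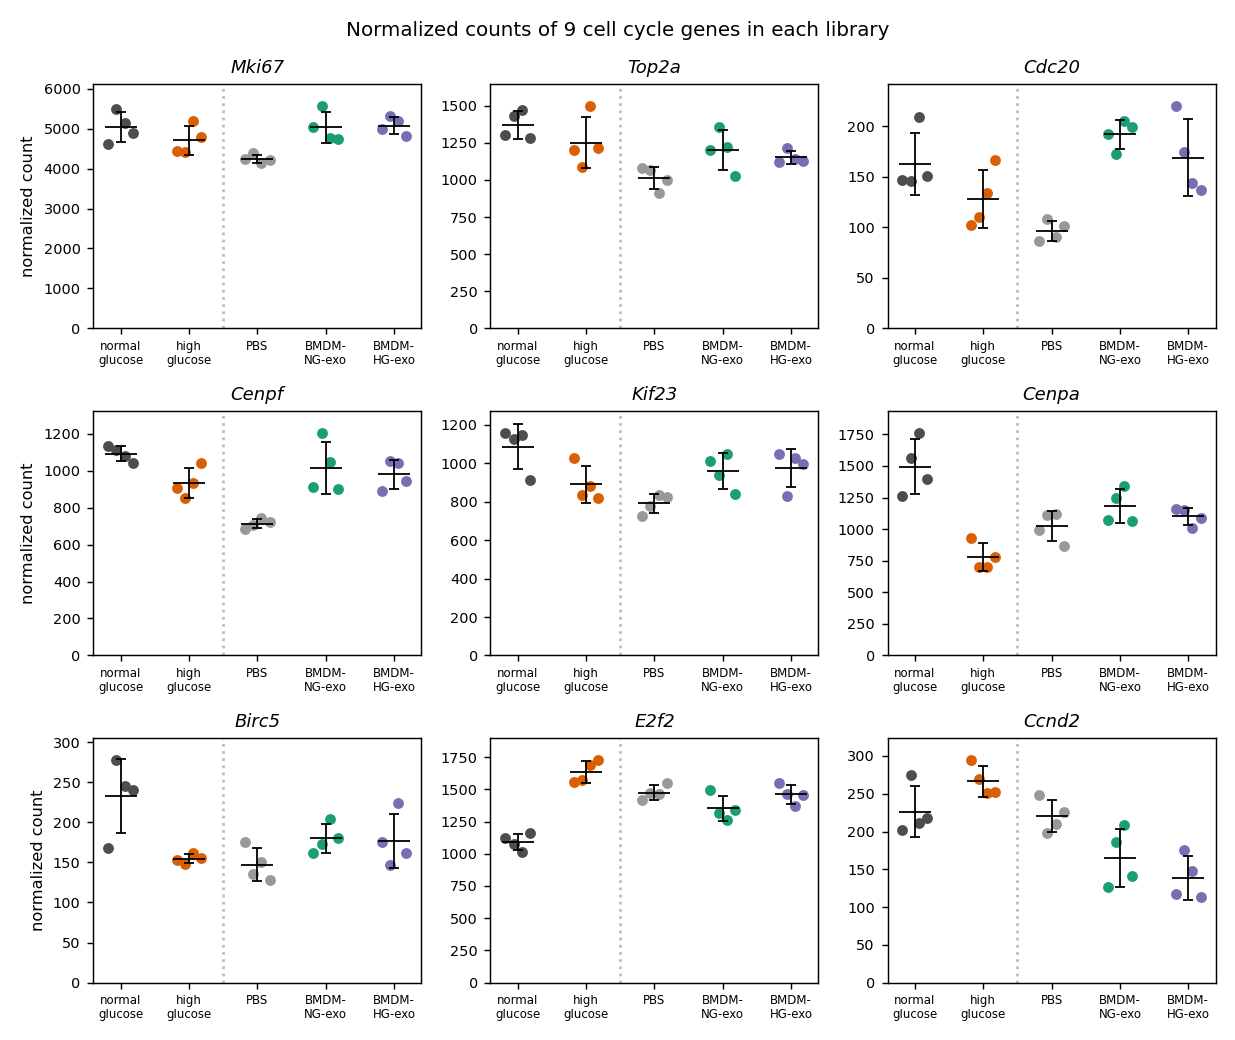
Normalized counts (vertical axes, from 0) of 9 cell cycle genes in each library (points), with the group mean and SD (bars, n = 4). Cdc20, Cenpf and Mki67 are lower in every PBS library than in the exosome libraries, Cenpa is lower and E2f2 higher in every high glucose library than in normal glucose, and the dotted line separates the 2 experiments.

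The second experiment asked whether exosomes changed these genes in naive BMDM. In BMDM-NG-exo against PBS, 3 of 52 genes (5.77%) passed limma's test and the limit of 0.15 on the size of the log2 fold change, against 3.0% of all genes tested. All 3, Cdc20, Cenpf and Mki67, were G2/M genes that rose (against 0.888% of all genes that rose). Of the 52 genes 0 fell, against 2.11%, and neither edgeR nor DESeq2 called a lower one. At an unadjusted p under 0.05, 14 of 52 were counted, against 1947 of 14413 over all genes. The groups did not overlap for 6 of 52 genes, against 8.27% of all genes. In BMDM-HG-exo against PBS, 5 of 52 genes (9.62%) passed, against 4.84% of all genes: the same 3 and Kif23 rose (4 of 52, 7.69%, against 1.76%) and Ccnd2, a D-type cyclin, fell (1 of 52, 1.92%, against 3.08%). Here 8 of 52 genes did not overlap, against 10% of all genes. The 2 comparisons share the 4 PBS libraries and are therefore not independent. The first gave 5 calls without BMDM-NG-exo library 4, and the second 3 without PBS library 1, BMDM-HG-exo library 1 or BMDM-HG-exo library 4, Ccnd2 and Kif23 being lost.

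Beyond the calls, 21 of 22 G2/M genes were above 0 against PBS with BMDM-NG-exo (median log2 fold change 0.24) and 21 of 22 with BMDM-HG-exo (median 0.24), whereas 17 of 30 G1/S genes were above 0 in each (medians 0.01 and 0.02). Over all genes tested, 51.6% and 50.9% were above 0, and the medians were 0.00 and 0.00. The exception among the G2/M genes was in both cases Cdk1, the kinase of mitosis, at -0.07 and -0.08. In the mean over the 22 genes, PBS libraries 1 to 4 lay at -0.23, -0.13, -0.17 and -0.18, BMDM-NG-exo libraries at 0.10, 0.25, 0.06 and 0.04, and BMDM-HG-exo libraries at 0.09, 0.15, 0.05 and -0.03. At each of the 4 dates the PBS library was thus the lowest of its 3, and no PBS library reached any exosome library, while the G1/S means (-0.09 to 0.04 in PBS, -0.09 to 0.04 with BMDM-NG-exo and -0.03 to 0.10 with BMDM-HG-exo) overlapped. In further cell cycle genes outside the 52 the phases were closer: 27 of 37 other G2/M genes were above 0 with BMDM-NG-exo (median 0.06) and 25 of 37 with BMDM-HG-exo (median 0.10), against 18 of 26 other S phase genes in each (medians 0.08 and 0.04). Without PBS library 1, the shallowest, the medians of the 22 G2/M genes were 0.24 and 0.22.

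Cdc20, the activator of the anaphase-promoting complex, had 86.1, 109, 90.4 and 101 normalized counts with PBS, 192, 172, 205 and 199.9 with BMDM-NG-exo and 220.4, 175, 144 and 137 with BMDM-HG-exo. All 8 exosome libraries lay above all 4 PBS libraries. Cdc20 rose from 96.6 ± 10.2 to 192 ± 14.4 and 169 ± 37.8 (SD, n = 4), with log2 fold changes of 0.99 (SE 0.18, limma adjusted p = 5.68e-04) and 0.78 (SE 0.18, limma adjusted p = 0.00484). On the opposite strand it overlaps Elovl1, which had a mean of 1467 normalized counts against 150.0 for Cdc20. The counting used strand, but reads assigned to the wrong strand were not measured.

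Cenpf had 681, 708, 745 and 719.5 with PBS, 912, 1203, 1044 and 900.3 with BMDM-NG-exo and 889, 1050.3, 1039 and 943 with BMDM-HG-exo. Again the PBS libraries stood below each exosome library, and Cenpf rose by log2 fold changes of 0.50 (SE 0.085, limma adjusted p = 1.97e-04) and 0.46 (SE 0.085, limma adjusted p = 3.47e-04). Mki67 had 4236, 4385, 4153 and 4217 with PBS, 5048, 5573, 4762 and 4741 with BMDM-NG-exo and 4988, 5313, 5188 and 4814 with BMDM-HG-exo. The difference was small, at 0.24 (SE 0.047, limma adjusted p = 0.00103) and 0.26 (SE 0.047, limma adjusted p = 2.85e-04) on the log2 scale. The SD was 98.0 normalized counts with PBS, 387 with BMDM-NG-exo and 220 with BMDM-HG-exo. Without the trend of the variance on the mean, Mki67 missed the threshold in both comparisons.

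Kif23 had 727, 779.9, 834 and 827 with PBS, 1014, 938, 1048 and 838 with BMDM-NG-exo and 1048, 829.7, 1029 and 999 with BMDM-HG-exo. Only BMDM-HG-exo library 2, at 829.7, fell within the PBS range. The log2 fold changes were 0.27 (SE 0.084, limma adjusted p = 0.0652) and 0.30 (SE 0.084, limma adjusted p = 0.0255), of which the second passed; it was lost without PBS library 1 or 2 and without BMDM-HG-exo library 1, 3 or 4. With the label date as a block, BMDM-NG-exo against PBS gave 5 calls in place of 3, Kif23 and Top2a being added. Top2a had 1079, 1065, 911 and 998 with PBS, 1204, 1355, 1222 and 1029 with BMDM-NG-exo and 1120.0, 1217, 1144 and 1125 with BMDM-HG-exo, and its log2 fold changes without the block were 0.24 (limma adjusted p = 0.0727) and 0.19 (limma adjusted p = 0.18).

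The mitotic cyclins were above PBS in most libraries without passing. Ccna2 had 191, 225, 187 and 221 with PBS, 265, 349, 239 and 259 with BMDM-NG-exo and 219, 269, 257 and 235 with BMDM-HG-exo, where 1 BMDM-HG-exo library reached into the PBS range (log2 fold changes 0.42 and 0.25, limma adjusted p = 0.122 and 0.397). Ccnb1 had 136, 145, 191 and 167 with PBS, 173, 276, 197 and 194 with BMDM-NG-exo and 171, 304, 193 and 224 with BMDM-HG-exo, with overlap in both (log2 fold changes 0.38 and 0.46, limma adjusted p = 0.334 and 0.156). The remaining G2/M genes had log2 fold changes from -0.07 to 0.41 with BMDM-NG-exo, and BMDM-HG-exo gave -0.08 to 0.33, the highest being Aurka with BMDM-NG-exo and Ect2, a regulator of cytokinesis, with BMDM-HG-exo. Plk1, the mitotic Polo kinase, had log2 fold changes of 0.61 and 0.31 and Kif11, the kinesin that separates the spindle poles, of 0.30 and 0.38. None of these passed in limma's main fit. For Kif11 the second adjusted p by limma was 0.0533. It passed with the label date as a block, with DESeq2, with a filter at a mean of at least 50 and with all 20 libraries in 1 fit. It also passed without PBS library 4, BMDM-NG-exo library 2 or 4 or BMDM-HG-exo library 3.

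Of the G1/S genes, Ccnd2 had 248, 198, 210.1 and 226 with PBS, 126, 186, 209 and 141 with BMDM-NG-exo and 117, 176, 147 and 114 with BMDM-HG-exo. The 4 BMDM-HG-exo libraries lay below the 4 PBS libraries, whereas library 3 of BMDM-NG-exo lay within the PBS range. Ccnd2 fell with BMDM-HG-exo by 0.69 on the log2 scale (SE 0.18, limma adjusted p = 0.0164), and its log2 fold change with BMDM-NG-exo was -0.44 (limma adjusted p = 0.253). The call was lost without PBS library 1 (adjusted p = 0.068), without BMDM-HG-exo library 1 (0.0632) and without BMDM-HG-exo library 4 (0.0669).

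Ccne2 had 16.5, 21.05, 29.3 and 46.6 with PBS, 37.5, 56.9, 68.5 and 26.7 with BMDM-NG-exo and 67.4, 68, 34.4 and 47.7 with BMDM-HG-exo, which overlap. Its log2 fold changes of 0.74 and 0.97 had 95% intervals from -0.02 to 1.49 and from 0.21 to 1.72, and neither passed (limma adjusted p = 0.386 and 0.144). Ccnd1 had 832, 1032, 923 and 973 with PBS, 894, 959, 722 and 837 with BMDM-NG-exo and 844, 1036, 861 and 868 with BMDM-HG-exo (log2 fold changes -0.14 and -0.06). The inhibitors overlapped in all 3 groups, at 2782, 2701, 2811 and 2696 for Cdkn1a with PBS, 2685, 2931, 2768 and 2939 with BMDM-NG-exo and 2647, 2679, 2581 and 2791 with BMDM-HG-exo.

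Cdkn2c had 299, 315, 265 and 212 with PBS, 295, 294, 232 and 280.1 with BMDM-NG-exo and 265, 248, 317 and 221 with BMDM-HG-exo, and Mcm5 had 422, 337, 437 and 389 with PBS, 330.0, 392, 391 and 358 with BMDM-NG-exo and 406, 413, 310.2 and 409 with BMDM-HG-exo. Neither passed, with 95% intervals against PBS from -0.27 to 0.32 and -0.35 to 0.24 for Cdkn2c and from -0.35 to 0.14 and -0.29 to 0.20 for Mcm5. By limma, edgeR or DESeq2, no gene of licensing (10), DNA synthesis (5) or the E2F factors (2) passed against PBS in either exosome group. At an unadjusted p under 0.05, 1 of these 17 was counted with BMDM-NG-exo, against 1947 of 14413 over all genes. With BMDM-HG-exo 2 of the 17 were counted, against 2429 of 14413.

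The remaining G1/S genes did not pass limma's test either. Their log2 fold changes lay between -0.24 (Uhrf1) and 0.34 (Cdc45) with BMDM-NG-exo and between -0.21 (Uhrf1) and 0.47 (Cdc45) with BMDM-HG-exo. Cdk4 was without overlap with BMDM-HG-exo (0.19, limma adjusted p = 0.0778) and was called there by DESeq2, and Mcm7 was lower without overlap with BMDM-NG-exo (-0.09).

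Outside the 52, 2 of 37 further G2/M genes passed in each exosome group (5.41%, against 3.0% of all genes with BMDM-NG-exo and 4.84% with BMDM-HG-exo). Cdca3, which targets proteins for destruction in mitosis, rose from 161 ± 21.4 to 254 ± 34.8 normalized counts with BMDM-NG-exo (SD, n = 4, log2 fold change 0.65, limma adjusted p = 0.0152), and Gas2l3, a cytoskeletal linker of late mitosis, rose by 0.15 on the log2 scale (limma adjusted p = 0.0343). With BMDM-HG-exo, Gas2l3 rose by 0.26 on the log2 scale (limma adjusted p = 6.26e-05) and Tmpo, a protein of the nuclear lamina, by 0.20 (limma adjusted p = 0.0256), and the p53 target Btg2 fell by 0.20 on the log2 scale (limma adjusted p = 0.029). None of 26 further S phase genes and 21 regulators passed. With BMDM-NG-exo 1 and 2 of them had an unadjusted p under 0.05, against 1947 of 14413 over all genes. With BMDM-HG-exo 6 and 4 of them did, against 2429 of 14413.

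**Figure D4:**
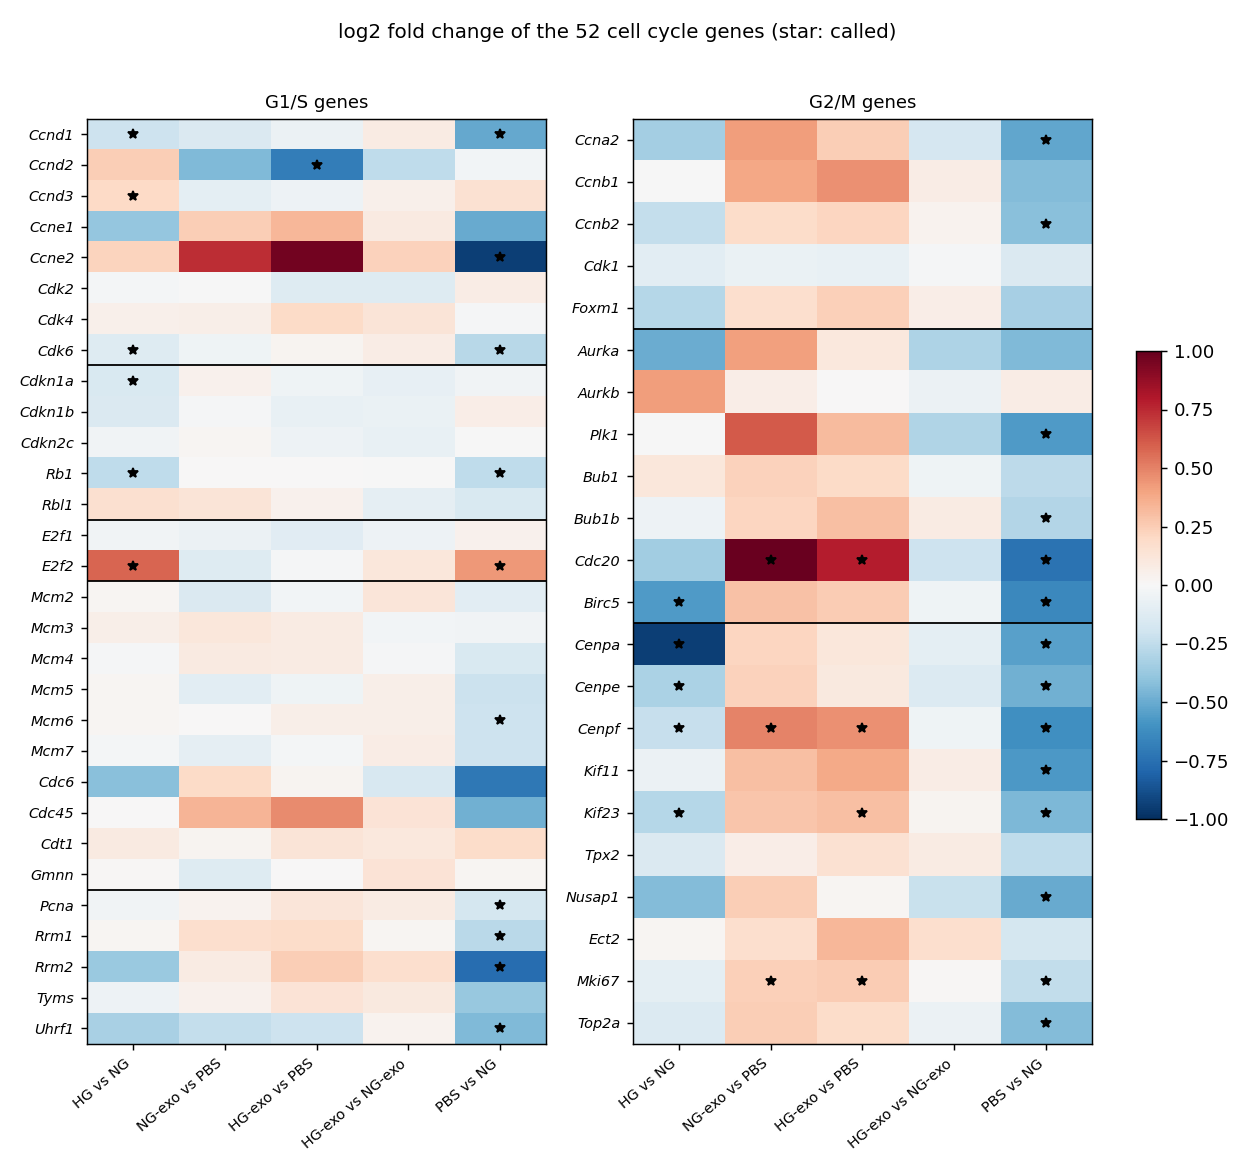
Log2 fold change (colour) of each of the 30 G1/S genes (left) and 22 G2/M genes (right) in 5 comparisons (columns; NG and HG stand for normal and high glucose), with black lines between roles and a star where the gene passed limma's test. In the columns of both exosome groups against PBS 21 of 22 G2/M genes are above 0, and in the column of high against normal glucose 19 of 22 are below 0.

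BMDM-HG-exo against BMDM-NG-exo asks about the glucose of the cells that made the exosomes. None of the 52 genes passed limma's test, against 0.0139% of all genes tested, and edgeR and DESeq2 called none of them. At an unadjusted p under 0.05, 1 of them was counted, against 942 of 14413 over all genes. This was Cdk4 (log2 fold change 0.13, limma adjusted p = 0.761). No gene of the 52 was without overlap, against 3.86% of all genes. Of the G2/M genes 9 of 22 and of the G1/S genes 19 of 30 were above 0, against 49.5% of all genes. Their medians were -0.04 and 0.06. For Mki67 the 95% interval of the log2 fold change was -0.08 to 0.11, for Cenpf -0.22 to 0.13, for Top2a -0.21 to 0.10, for Kif23 -0.15 to 0.19, for Cdc20 -0.58 to 0.16 and for Ccne2 -0.52 to 0.98. The interval was narrowest for Mki67 and widest for Ccne2 among these 6.

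Against PBS and BMDM-NG-exo combined (8 libraries), BMDM-HG-exo likewise gave 0 of 52 genes by limma, edgeR and DESeq2, against 0.201% of all genes. At an unadjusted p under 0.05, 4 of the 52 genes were counted, against 1511 of 14413 over all genes. They were Ccnd2 (log2 fold change -0.47), Cdk4 (0.16), Pcna (0.10) and Mki67 (0.14), with limma adjusted p of 0.295, 0.262, 0.453 and 0.401. None of the 52 was without overlap here, against 1.17% of all genes. This comparison mixes BMDM-NG-exo, in which Cdc20, Cenpf and Mki67 rose against PBS, into the controls.

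The response to high glucose and the response to exosomes from high glucose BMDM were then set against each other in 1 contrast over 20 libraries (high minus normal glucose, minus BMDM-HG-exo minus BMDM-NG-exo). For 3 of 52 genes (5.77%) the difference passed, against 4.74% of all genes tested. Over all genes 472 differences were above 0 and 213 below it, and 322 and 290 after quantile normalization, where the same 3 of the 52 passed. Cenpa had -0.94 in the first and -0.10 in the second (difference -0.84, SE 0.13, limma adjusted p = 2.06e-05). For E2f2 the log2 fold changes were 0.58 and 0.11 (difference 0.47, SE 0.088, limma adjusted p = 4.26e-04) and for Cdk6 -0.13 and 0.08 (difference -0.21, SE 0.056, limma adjusted p = 0.0203), the last lost without normal glucose library 3, high glucose library 2 or BMDM-NG-exo library 1. The other 49 genes did not pass, among them Rb1 (difference -0.25, limma adjusted p = 0.104).

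The control groups of the experiments also differ, in handling, sugar (mannitol was added in normal glucose) and experiment, and these cannot be told apart. Between PBS and normal glucose, 24 of 52 genes (46.2%) passed, against 18.0% of all genes. Of these, 23 were lower with PBS (44.2%, against 8.04%) and 1, E2f2, was higher (1.92%, against 9.94%). The groups did not overlap for 21 of 52 genes, against 19.0% of all genes. By phase, 14 of 22 G2/M genes and 9 of 30 G1/S genes were lower, with medians of -0.44 and -0.16. In the G1/S list these were 4 of 5 genes of DNA synthesis (Pcna, Rrm1, Rrm2 and Uhrf1) and Ccnd1, Ccne2, Cdk6, Rb1 and Mcm6. Most genes called with high glucose were also called here in the same direction. Cenpa, Birc5, Cenpe, Kif23, Cenpf, Rb1, Ccnd1 and Cdk6 were lower than in normal glucose in both comparisons, and E2f2 was higher. Only Ccnd3 and Cdkn1a were called with high glucose alone. Both comparisons share the normal glucose libraries, and the cause of this overlap was not tested.

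Those with the smallest p were Cenpf, which fell from 1091 ± 39.95 in normal glucose to 713 ± 26.4 with PBS (SD, n = 4, log2 fold change -0.61, limma adjusted p = 2.15e-07), and Cdk6, from 7368 ± 286 to 6072 ± 202 (log2 fold change -0.28, limma adjusted p = 1.24e-06). E2f2 rose from 1092 ± 63.8 to 1475 ± 56.5 (log2 fold change 0.43, limma adjusted p = 1.35e-06), Cenpe fell to 815 ± 62.97 (log2 fold change -0.48, limma adjusted p = 4.35e-06) and Ccnd1 to 940.1 ± 84.8 (log2 fold change -0.51, limma adjusted p = 9.11e-06). In these 5 genes no PBS library overlapped a normal glucose library. Outside the 52, 10 of 37 further G2/M genes and 7 of 26 further S phase genes were lower with PBS (against 8.04% of all genes), Pola1 by 0.59 on the log2 scale (limma adjusted p = 9.59e-05) and the kinase Ttk by 1.37 (limma adjusted p = 0.00178), while the p53 targets Btg2 and Bax and the E2F factor E2f4 were higher, by 0.45, 0.40 and 0.28 on the log2 scale.

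Set side by side over the 5 groups, the levels of the G2/M genes were thus not ordered alike in both experiments. Mki67 averaged 5037 ± 377 normalized counts in normal glucose, 4709 ± 365 in high glucose, 4248 ± 97.99 with PBS, 5031 ± 387 with BMDM-NG-exo and 5076 ± 220.0 with BMDM-HG-exo. PBS was the lowest group for Mki67, Top2a, Cdc20, Cenpf, Kif23, Ccna2 and Ccnb1, whereas Cenpa was lowest in high glucose, at 778 ± 108 against 1021 ± 119 with PBS. These levels across the experiments carry the same limit of handling and sugar.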

How the data were processed

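RNA of mouse BMDM was sequenced in 20 libraries. Per the study's methods, the authors prepared stranded total RNA libraries with depletion of ribosomal cDNA and filtered and trimmed reads as the kit's maker advises. They aligned the reads with STAR and obtained gene counts with featureCounts, read 2 giving the sense strand. The submitters' processing notes name cutadapt, STAR, featureCounts and GRCm38. The annotation used for counting is not given in the sources used here. The deposited signal is the count of each gene divided by DESeq2 median-ratio size factors (0.7896 to 1.2545), which the authors applied over all libraries. Whole reads were recovered from it, 100% of values being whole within 0.001, and no 2 libraries of a group agreed within sampling noise (chi-square per degree of freedom 5.19 to 41.9 over 30 pairs).

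Ensembl identifiers were named with GENCODE M21 (14421 of 14456 matched). The main test was limma 3.58.1 (R 4.3.3; lmFit and eBayes with a mean-variance trend, two-sided) on log2(normalized count + 1), a scale that understates changes of low genes, for genes with a mean of at least 10 in the libraries fitted. This unit is normalized rather than raw, so a count test was not the main one. Fits used the 8 glucose libraries, the 12 exosome libraries (1 model for the 3 groups, another for the combined controls) or all 20 for the contrasts across experiments. A gene was called at a Benjamini-Hochberg adjusted p under 0.05 over all genes tested, and in the exosome comparisons and PBS against normal glucose also with a log2 fold change of 0.15 or more in size. Groups came from the labels. No column was left without a sample.

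Alternatives were other pseudocounts and filters, TMM and quantile scaling, no trend, edgeR 4.0.16 and DESeq2 1.42.0 on the recovered reads, the fold limit added or dropped, a replicate block, all libraries in 1 fit and each library left out. Simulated data with known changes of 1 and 0.5 log2 units were also tested with limma. In BMDM-NG-exo against PBS, limma recovered 91% of the genes changed by 1 and 78% of those changed by 0.5 (14410 genes tested, 2.3% of calls false). In high against normal glucose it recovered 93% and 69% (14374 genes tested, 7.4% of calls false). Recovery of smaller changes, such as the log2 fold change of -0.13 called for Cdk6 with high glucose, was not measured. These shares therefore do not speak for calls or missing calls at such sizes.

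The exosome libraries pair by the date in their labels. Deviations from group means correlated by 0.012 on average over 12 pairs of the same date and by -0.004 over 36 pairs of different dates.

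The members and gene lists were chosen with earlier results of these data known. Values in every library are given for the called members with the smallest p in each comparison (up to 8, or up to 5 for PBS against normal glucose) and for Mki67, Top2a, Ccna2, Ccnb1, Ccnd1, Cdkn1a, Cdkn2c, Mcm5 and Ccne2. Ccnd3 was added after its values were seen. Up to 5 called genes of the other cell cycle lists were named. Promoter windows and their coordinates came from RefSeq (GRCm38.p6). Proteins were not analysed here.

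Genes overlap on the other strand for Ccnd1, Ccnd3, Ccne2, Cdk4, Rb1, Mcm7, Cdc45, Ccna2, Cdc20 and Nusap1. Stranded counting is meant to keep them apart, but reads assigned to the wrong strand were not measured. The neighbour had far higher normalized counts for Ccne2 (Ints8, 1461 against 48.9) and Cdc45 (Ufd1, 1337 against 64.2). The same held for Rb1 (Rcbtb2, 12580 against 3006) and Ccna2 (Exosc9, 1173 against 251). The neighbour was the lower of the pair for Ccnd1, Ccnd3 and Nusap1. Lpar6, also on the other strand from Rb1, was lower than Rb1. Rb1 also overlaps Gm17233 on its own strand, which had a mean of 29.8 normalized counts.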

Additional observations from a re-analysis of the deposited data

Results flagged for a closer look

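In a test of the most distant library in each group of 4 (Dixon's ratio against its 95% limit), 16 of 270 groups stood out, and chance alone marks about 1 in 20. Among the G1/S genes, a library lay above the other 3 of its group for Ccnd1 in BMDM-HG-exo library 2 (1036 normalized counts), Ccnd3 in high glucose library 1 (1738), Mcm4 in high glucose library 4 (1049) and Tyms in normal glucose library 3 (186). A library lay below the other 3 for Ccne1 in normal glucose library 3 (62.9), Cdkn1b in high glucose library 6 (1922), Mcm5 in BMDM-HG-exo library 3 (310.2), Mcm7 in BMDM-NG-exo library 3 (509.6), Uhrf1 in PBS library 4 (208) and Uhrf1 in BMDM-NG-exo library 4 (153). Among the G2/M genes, Cdc20 was higher in normal glucose library 5 (209) and Nusap1 in BMDM-HG-exo library 2 (149) than in the other 3, and Foxm1 was lower in PBS library 1 (179.8), Aurkb in BMDM-NG-exo library 3 (153), Kif23 in normal glucose library 6 (911) and Ect2 in BMDM-NG-exo library 1 (165).

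For 3 genes the response to high glucose differed from the response to BMDM-HG-exo against BMDM-NG-exo by limma's test of the difference. The difference in log2 fold change was -0.84 for Cenpa, 0.47 for E2f2 and -0.21 for Cdk6. The call of Cdk6 was lost without the trend (adjusted p = 0.0821 by limma) and without normal glucose library 3, high glucose library 2 or BMDM-NG-exo library 1.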

How the results depend on the processing

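Over the alternatives no named result reversed, and 13 of 24 named results kept their call in each setting run: Cenpa and E2f2 with glucose and in the difference, Cdc20 and Cenpf in both exosome groups against PBS, and Cenpf, Cdk6, E2f2, Cenpe and Ccnd1 in PBS against normal glucose. Of the 592 values under alternatives, 42 lost the call. The number of members called with high glucose (11) was 4 without the trend and 4 with a replicate block, and 4 to 10 with 1 library left out. The numbers of the glucose libraries, of which only 1 and 6 are shared, correlated by 0.0071 (2 pairs) and are no stated pairing. With the date block, BMDM-NG-exo against PBS gave 5 calls in place of 3, as did DESeq2 (5), and it changed no other exosome count of members by over 1.5 times. With 1 library left out, BMDM-NG-exo against PBS gave 3 to 5. Over all genes, BMDM-HG-exo against BMDM-NG-exo gave 22 calls with the block in place of 2. BMDM-HG-exo against PBS (5) gave 2 without the trend and 3 to 6 with 1 library left out. None of the 52 was called for BMDM-HG-exo against BMDM-NG-exo and against the combined controls in every setting. The G2/M median of PBS against normal glucose (-0.44) was -0.37 after quantile normalization. Over all genes, calls ran from 654 to 2162 with high glucose (main 1914), from 1 to 322 against the combined controls (29), from 0 to 25 for BMDM-HG-exo against BMDM-NG-exo (2), from 95 to 512 for BMDM-NG-exo against PBS (432), from 295 to 833 for BMDM-HG-exo against PBS (698) and from 324 to 899 for the difference (685). The cause of these shifts was not tested. Depth limits mainly Ccne2, whose lowest value rests on 13 reads.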
